A study of Homo sapiens with 6 samples.

Results

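Neurotransmitter receptor genes were described in control cultures of SH-SY5Y, an established human neuroblastoma line of sympathetic type. The genes were taken by symbol from the count table and cover the receptors for acetylcholine, GABA, glutamate, dopamine, noradrenaline and adrenaline, and serotonin. The symbols matched 99 of 60709 genes with values, and all 99 are protein-coding in GENCODE release 29. Of these, 36 had at least 10 counts in every control library, 32 had fewer, and 31 had 0 counts in every library. The same minimum was passed by 22.9% of all genes and by 62.2% of protein-coding genes, against 36.4% of the receptor genes. A count of 0 in every library was recorded for 53.6% of all genes and 19.5% of protein-coding genes, against 31.3% of the receptor genes.

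The study addressed the response of SH-SY5Y cells to a fumarate linked to an NRF2 peptide, with 3 control samples and 3 peptide-treated samples. Cells of both groups were at 80% confluence in 2 mL of medium, received 10 uL of DMSO and were lysed after 5 h. The treated wells also received 200 uL of a peptide solution of 2 mg in 600 uL of water, and the labels name no water for the control wells. Column headings matched the label numbers of the control samples (4, 5 and 6) and not those of the treated samples (13, 14 and 15), so the treated samples were not analysed here. If the columns were numbered independently of the labels, the libraries called controls could be treated ones. SH-SY5Y is 1 tumour line, and nothing in the labels says that the 3 control wells came from separate cultures, so the spread between them may be technical.

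Receptors for these transmitters are either channels or G protein-coupled. Ligand-gated channels are rings or clusters of subunits encoded by separate genes, and they pass ions within the time of a synaptic signal. G protein-coupled receptors mostly come from a single gene each, though GABA-B needs a pair, and act through the Gi/o, Gq or Gs classes of G protein. Sympathetic neurons, the lineage of these tumours, receive acetylcholine through nicotinic channels and release noradrenaline, which also acts back on the neuron through alpha-2 adrenergic receptors. SH-SY5Y cells are often used as a neuronal model, in which nicotinic and muscarinic receptors have been much studied.

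The libraries held 10683037, 11397407 and 8887854 counts in replicates 1, 2 and 3. Receptor genes took 12995, 13073 and 10437 of them, or 0.122%, 0.115% and 0.117%. Levels are given as CPM, the counts in each 1000000 of the library. Where a gene had 0 counts, its level may still be as high as 0.281, 0.263 and 0.338 CPM in the 3 libraries (3 counts each), for counting error only. Replicate 3 stood apart: mitochondrial genes took 6.25% of its counts against 4.11% and 3.83%, and its values fell with GC content relative to the others. Of the noradrenergic neuroblastoma markers 11 of 12 passed the minimum, with a summed level of 3736 to 4081 CPM, but TH, the first enzyme of catecholamine synthesis, had 0 counts in every library. Mesenchymal markers passed in 7 of 8 cases (681 to 703 CPM summed, PRRX1 at 0). Most of that sum came from VIM, TWIST1 and FN1 (means of 285, 187 and 184 CPM), with YAP1 next at 17.0 CPM. Glial markers passed in 2 of 6 cases (2.71 to 3.73 CPM) and skeletal muscle in 1 of 6 (26.5 to 31.0 CPM, nearly all TTN, with MYOD1 and MYOG at 0). Epithelial markers passed in 1 of 5 (2.03 to 2.63 CPM, KRT5 and CDH1 at 0) and blood in 0 of 4 (0.0875 to 0.113 CPM, HBB and HBA1 at 0).

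CPM values below follow TMM scaling of the library totals and are given as mean ± SD over the 3 control libraries (n = 3). All receptor genes together summed to 1215, 1144 and 1179 CPM. Nicotinic receptor genes held 62.5% of this sum, GABA-A genes 10.4%, and the AMPA, kainate and delta group 8.18%. Muscarinic genes held 5.55%, GABA-B 4.01%, metabotropic glutamate 2.94%, NMDA 2.39%, adrenergic 2.04%, serotonin 1.06% and dopamine 0.917%. Much of a family sum could come from a single gene. CHRNA3 held 63.8% of the nicotinic sum and GRIK5 61.7% of the AMPA, kainate and delta sum. Over the families the share of the top gene ran from 34.1% (HTR6, serotonin) to 99.9% (GABBR1, GABA-B). Sums over a family weigh long transcripts more, since they are not per length. A mean of at least 100 CPM was reached by 2 receptor genes, 10 CPM by 17 and 1 CPM by 37. In such bulk libraries a low level from few expressing cells cannot be told apart from little RNA in each cell.

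**Figure D1:**
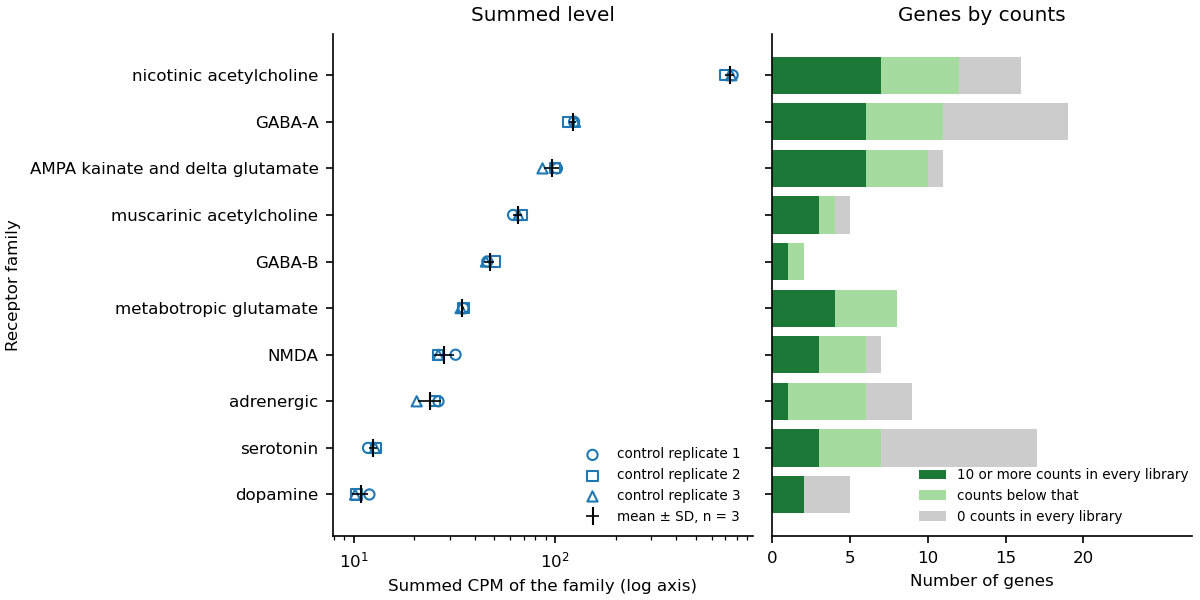
Left, the summed CPM (log axis) of each receptor family in control replicates 1 (circle), 2 (square) and 3 (triangle), with the mean and SD in black; right, the number of genes of each family at 10 or more counts in every library, below that, and at 0. Nicotinic genes sum to 737 CPM and dopamine genes to 10.8 CPM, and serotonin genes have the most members at 0 (10 of 17).

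The nicotinic receptor is a channel built as a ring of subunits, and CHRNA3 and CHRNB2 had the highest levels of the family. CHRNA3 (ENSG00000080644), which encodes the alpha-3 subunit of that type, had 476, 441 and 495 CPM in replicates 1, 2 and 3, or 470.5 ± 27.8. CHRNB4, its usual beta partner in ganglia, had 66.1, 59.9 and 65.5 CPM. CHRNB2, the beta subunit common in brain receptors, had 159, 142 and 130 CPM. CHRNA5, an accessory subunit that joins alpha-3 receptors, had 28.0, 25.6 and 32.5 CPM. Each of these ranges stands clear of the others on the CPM scale.

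Levels of different genes compare only per length, here as CPM per kb of the longest transcript. On that scale CHRNA3 was at 147 ± 8.67, CHRNB2 at 24.5 ± 2.48, CHRNB4 at 24.3 ± 1.31 and CHRNA5 at 7.92 ± 0.967. CHRNB2 and CHRNB4 overlapped in range. The ratio of CHRNA3 to CHRNB4 per length was 5.89, 6.03 and 6.19 in the 3 libraries (6.04 ± 0.151), and that to CHRNA5 was 19.3, 19.4 and 17.2 (18.6 ± 1.22). The ratio of CHRNA3 to CHRNB2 was 6.06 ± 0.822, being 5.49 and 5.68 in replicates 1 and 2 and higher in replicate 3. CHRNB2 and CHRNB4 gave a ratio of 1.01 ± 0.105, which rose to 1.90 when length was taken as the union of all exons, so the size of their difference per length depends on the transcript assumed. With the union of exons CHRNA3 was still first, at 4.09 times CHRNB2, the next gene. Among all protein-coding genes, 271 had a level per length at or above that of CHRNA3, counting the gene itself.

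CHRNA7, which forms channels of a single subunit type, had 6.08, 4.81 and 4.40 CPM. CHRFAM7A, a partial copy of CHRNA7 that shares sequence with it, had 12, 17 and 11 counts. The counts of either may hold reads of the other or lack reads that fit both. CHRNA3 was 227 ± 41.6 times CHRNA7 per length, or 414 times with the union of exons. Reads gained by CHRNA7 would have lowered both ratios, and reads lost from it would have raised them. CHRNA10, an alpha subunit known from hair cells, had 2.99, 2.10 and 2.37 CPM, and its exons share 133 bases on the same strand with those of NUP98 (1842 to 2387 counts). Its hair cell partner CHRNA9 had 3, 14 and 6 counts. CHRNA4, the usual brain partner of CHRNB2, had 5, 10 and 1 counts. CHRNA2, CHRNA6 and CHRNB3 had 0 counts in every library.

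The muscle type of nicotinic receptor needs alpha, beta, delta and epsilon or gamma subunits, and their levels were uneven. CHRNB1, its beta subunit, had 23.8, 20.1 and 19.3 CPM and passed the minimum. CHRND, the delta subunit, had 10, 3 and 5 counts, and CHRNE, the adult epsilon subunit, had 2, 4 and 5. The CHRNE exons overlap those of C17orf107 (0, 3 and 2 counts) over 40.9% of their length on the other strand, and those of MINK1 (532 to 819 counts) over 10.1%. The few counts of CHRNE may thus hold reads of these neighbours or lack reads that fit both genes. CHRNA1, the muscle alpha subunit, had 0, 2 and 0 counts, and CHRNG, the fetal gamma subunit, had 0 in every library. RAPSN, the protein that anchors muscle receptors, had 2, 0 and 2 counts.

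Of the muscarinic receptors, which are G protein-coupled, CHRM3 was the most abundant. CHRM3, coupled to Gq, had 49.4, 56.0 and 46.9 CPM. CHRM2, coupled to Gi/o, had 9.54, 10.4 and 16.3 CPM, with replicate 3 clear of the other libraries. The ratio of CHRM3 to CHRM2 per length was 3.49 and 3.63 in replicates 1 and 2 and 1.94 in replicate 3. CHRM5, a further Gq receptor, had 16 counts in each library. CHRM4 had 16, 9 and 8 counts, and CHRM1, a main muscarinic receptor of the forebrain, had 0.

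GABA-A receptors are chloride channels, mostly of alpha, beta and gamma subunits. Of the 19 genes of the family 6 passed the minimum. Among the alpha subunits GABRA3 had 12.6, 13.2 and 13.4 CPM, with close values in the 3 libraries. GABRA5 had 1, 2 and 1 counts, and GABRA2, GABRA4 and GABRA6 had 0. The beta subunit genes GABRB1 and GABRB2 also had 0 counts in every library. Among the gamma subunits GABRG3 had 5.05, 3.24 and 4.40 CPM, and GABRG1 had 0, 1 and 0 counts.

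Some less common subunits had counts as well. GABRQ, the theta subunit, had 16.6, 16.1 and 17.3 CPM, which on that scale is above GABRA3 in every library. Per length the order turned, with GABRA3 at 1.31 ± 0.0500 times GABRQ. GABRR2, a rho subunit known from retina, had 5.61, 5.25 and 4.86 CPM, and GABRD, the delta subunit of receptors outside synapses, had 3.37, 2.71 and 2.26 CPM. GABRP and GABRR3 had at most 3 counts, and GABRE and GABRR1 had 0.

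The GABA-B receptor is an obligate pair of GABBR1, which binds GABA, and GABBR2, which carries GABBR1 to the cell surface and couples to Gi/o. GABBR1 had 46.1, 50.2 and 45.4 CPM. GABBR2 had 0, 2 and 0 counts. In counts, GABBR1 had 402 to 574, so the genes of the pair were far apart in every library.

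Among the ionotropic glutamate receptors, kainate subunits led. GRIK5, a kainate subunit that needs a partner of the GRIK1 to GRIK3 kind, had 65.5, 59.9 and 53.3 CPM. GRIK2, such a partner, had 19.9, 23.98 and 19.99 CPM. Per length GRIK5 was 3.97 ± 0.586 times GRIK2. GRIK1, GRIK3 and GRIK4 had between 3 and 14 counts in every library.

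AMPA subunits, which carry most fast excitation in the brain, were low. GRIA2, the subunit whose RNA editing limits calcium entry, had 4.86, 2.89 and 2.71 CPM, with replicate 1 clear of the others. GRIA3 had 1.87, 2.98 and 2.03 CPM, and GRIA4 had 1.31, 1.75 and 1.24. GRIA1 had 0 counts in every library. GRID1, a delta glutamate receptor that acts as a synaptic organiser, had 7.20, 6.48 and 5.53 CPM.

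NMDA receptors combine the obligate subunit GRIN1 with GRIN2 or GRIN3 subunits. GRIN1 had 20.5, 17.3 and 17.6 CPM. GRIN2D had 5.14, 4.03 and 4.18 CPM, and GRIN2C had 4.58, 3.24 and 3.05. Per length GRIN1 was 4.12 ± 0.165 times GRIN2D and 6.58 ± 0.844 times GRIN2C. The subunits that dominate in forebrain were at the floor, with 0, 2 and 1 counts for GRIN2A and 0 in every library for GRIN2B. GRIN3A had 9, 10 and 8 counts, and GRIN3B had 11, 8 and 4.

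All 8 metabotropic glutamate receptor genes had counts in every library, and 4 passed the minimum. GRM7, which is presynaptic and coupled to Gi/o, had 14.3, 15.2 and 15.7 CPM. GRM2 had 13.1, 10.9 and 11.2 CPM, and GRM8 had 5.33, 6.39 and 4.74, both also coupled to Gi/o. GRM3 had 4 to 5 counts and GRM6, known from retinal bipolar cells, 4 to 6. GRM4 had 1 to 2 counts and GRM5 2 in each library, although the exons of GRM5 overlap an antisense gene over 50.4% of their length.

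Of the 9 adrenergic receptor genes, 1 passed the minimum. ADRA2C, an alpha-2 receptor coupled to Gi/o that can act as an autoreceptor on noradrenergic neurons, had 25.0, 23.98 and 19.4 CPM. Replicate 3 was below the other libraries, and its log2 difference from their mean of -0.33 became -0.05 once the GC trend was removed. The related ADRA2A had 11, 11 and 6 counts, and ADRA2B 2, 1 and 0. Alpha-1 receptors, coupled to Gq, had at most 1 count (ADRA1A and ADRA1D) or 0 (ADRA1B). The beta receptor genes ADRB1 and ADRB3, whose products couple to Gs, had 0. RNA of the machinery for the ligand was uneven. DBH, which makes noradrenaline from dopamine, had 799 ± 90.2 CPM and SLC6A2, the noradrenaline transporter, 492 ± 37.7 CPM. DDC had 66.9 ± 3.77 CPM and the vesicle transporter SLC18A1 71.6 ± 11.0 CPM. TH had 0 counts in every library, and the vesicle transporter SLC18A2 had 11, 8 and 7. PNMT, which makes adrenaline from noradrenaline, had 2.27 ± 0.681 CPM.

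Dopamine receptor counts came from the D2 class alone. DRD2, a Gi/o receptor that also serves as an autoreceptor, had 10.1, 9.19 and 8.36 CPM. DRD4, of the same class, had 20, 13 and 16 counts. DRD3, the third member of that class, and the Gs-coupled DRD1 and DRD5 had 0 counts in every library.

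Of the 17 serotonin receptor genes, 3 passed the minimum. HTR6, coupled to Gs, had 4.58, 4.46 and 3.73 CPM. HTR1E, coupled to Gi/o and absent from mice, had 3.74, 3.33 and 3.39 CPM. HTR2B, a Gq receptor known from heart valves and gut, had 2.99, 4.55 and 5.08 CPM, but 24.9% of its exon length lies opposite exons of PSMD1, which had 2581 to 3336 counts. Of the serotonin-gated channel subunits, HTR3A had 0, 1 and 1 counts, HTR3B 1, 2 and 1, and HTR3C, HTR3D and HTR3E 0. HTR1D had 1, 1 and 0 counts and HTR2C 3 in each library. The others at 0 were HTR1A, HTR1B, HTR1F, HTR2A, HTR4, HTR5A and HTR7.

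By mechanism, channel subunits held 83.5% of the receptor sum, with 985 ± 40.5 CPM over 58 genes, of which 22 passed the minimum. The 41 G protein-coupled receptor genes summed to 195 ± 7.10 CPM, and 14 passed. Gi/o receptors made up 132 ± 2.64 CPM (9 of 22 genes passed), Gq receptors 58.3 ± 4.99 CPM (4 of 11) and Gs receptors 4.49 ± 0.374 CPM (1 of 8). Single genes weighed heavily in each sum, as CHRNA3 held 47.8% of the channel sum and CHRM3 87.1% of the Gq sum. GABBR1 held 35.8% of the Gi/o sum, although its coupling partner GABBR2 had 0, 2 and 0 counts. HTR6 held 94.8% of the Gs sum, and 6 of the 8 Gs receptor genes had 0 counts. Sums of this kind weigh long transcripts more. GNAS, the gene of the G protein behind these few Gs receptors, had 3183 ± 221 CPM, which is RNA of the whole gene and not protein.

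The 36 genes over the minimum spanned a wide range per length, with CHRNA3 first at 147 CPM per kb. GRIA4, near the lower end but not the lowest, was at 0.255 ± 0.0491 CPM per kb. Their median was 2.09 CPM per kb, against 9.77 for the 12393 protein-coding genes over the same minimum, and 7 of the 36 were above that value. CHRNA3, CHRNB2, CHRNB4, GRIK5, ADRA2C, GABBR1, CHRNB1, CHRNA5 and CHRM3 were among the first 10 in that order, and with the union of exons as length the same 10 genes came first. Of the 35 pairs of neighbours in the order, 23 overlapped in range over the 3 libraries and so did not differ beyond their spread. CHRNA3 was clear of CHRNB2, CHRNB4 of GRIK5 and GABBR1 of CHRNB1. From HTR6 at 2.15 down to HTR1E at 1.70 CPM per kb, each gene overlapped the next in the order.

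**Figure D2:**
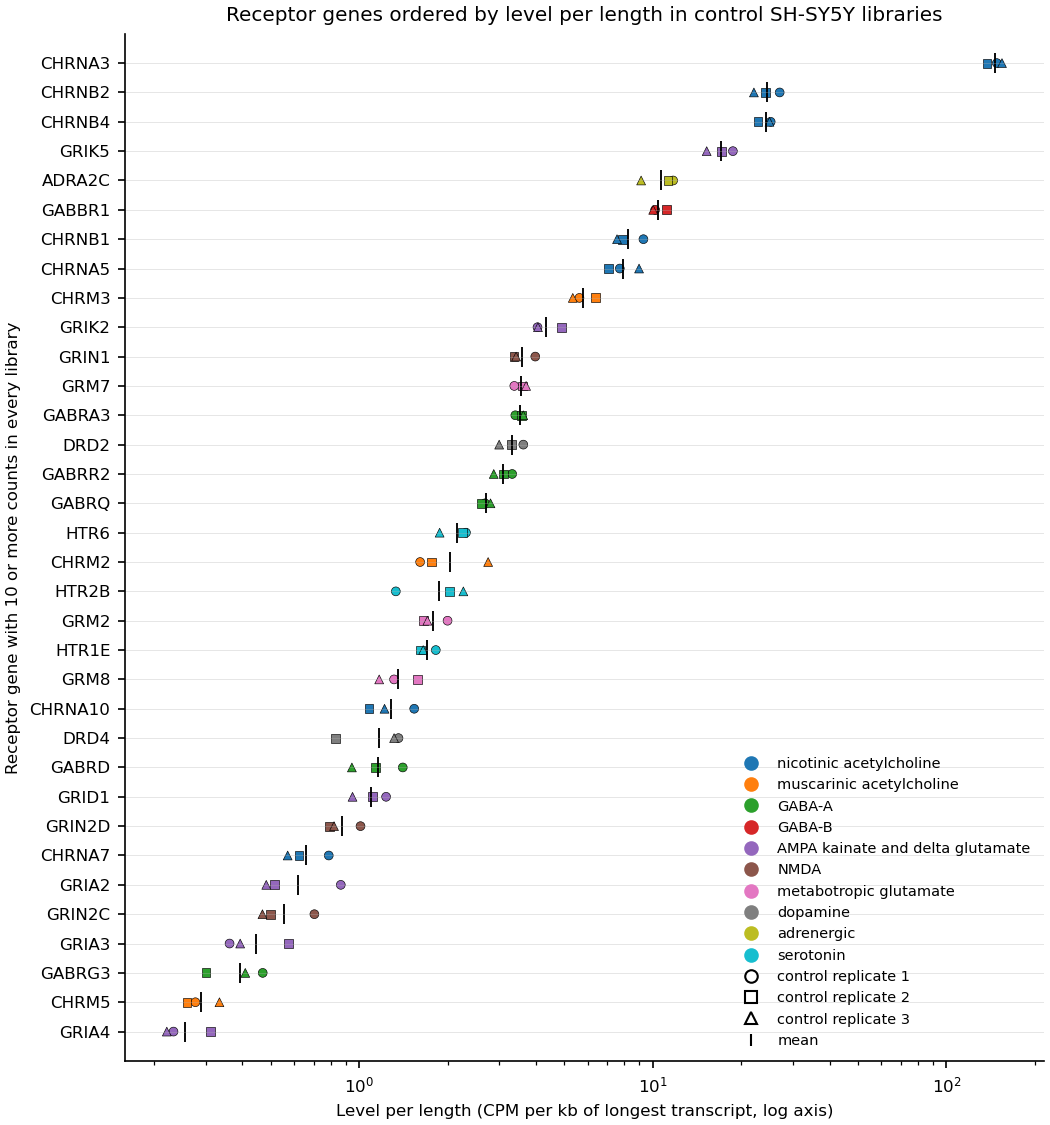
Level per length (CPM per kb of the longest transcript, log axis) of 34 of the 36 receptor genes that passed the minimum in every library, in control replicates 1 (circle), 2 (square) and 3 (triangle), coloured by family, with the mean as a bar. CHRNA3 lies at 138 to 155, apart from CHRNB2 and CHRNB4 at 22.1 to 27.05, and most lower neighbours overlap.

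Many subunit genes lie side by side in the genome, in clusters left by gene duplication. With neighbours joined where they lay within 1 Mb, 33 of the 99 genes fell into 12 clusters, and 9 of the 33 passed the minimum, against 27 of the 66 outside. In 7 clusters no gene passed, and in 1 all did. That cluster, at 78565520 to 78727754 on chromosome 15 (GRCh38), holds CHRNA5, CHRNA3 and CHRNB4 within 162.2 kb. CHRNA3 and CHRNA5 run towards each other, and their exons overlap by 198 bases. CHRNA5 also lies opposite an antisense gene (ENSG00000261762, 138 to 178 counts) over 23.0% of its exon length. Since the use of strand in counting is not stated in the sources used here, its counts may hold reads of these neighbours or lack reads that fit both genes.

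Within some GABA-A clusters counts differed from gene to gene, and in others no gene passed the minimum. On chromosome 15, GABRG3 had 37 to 54 counts and GABRA5, at its side, had 1 to 2. On the X chromosome, at 151953124 to 152657534, GABRA3 (119 to 151 counts) and GABRQ (153 to 184) passed and GABRE had 0. On chromosome 6, GABRR2 had 43 to 60 counts and GABRR1, at its side, had 0. The cluster on chromosome 4 (GABRG1, GABRA2, GABRA4 and GABRB1) held at most 1 count per gene and library. Outside this family, DRD2 on chromosome 11 had 74 to 108 counts beside HTR3B and HTR3A at 0 to 2.

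**Figure D3:**
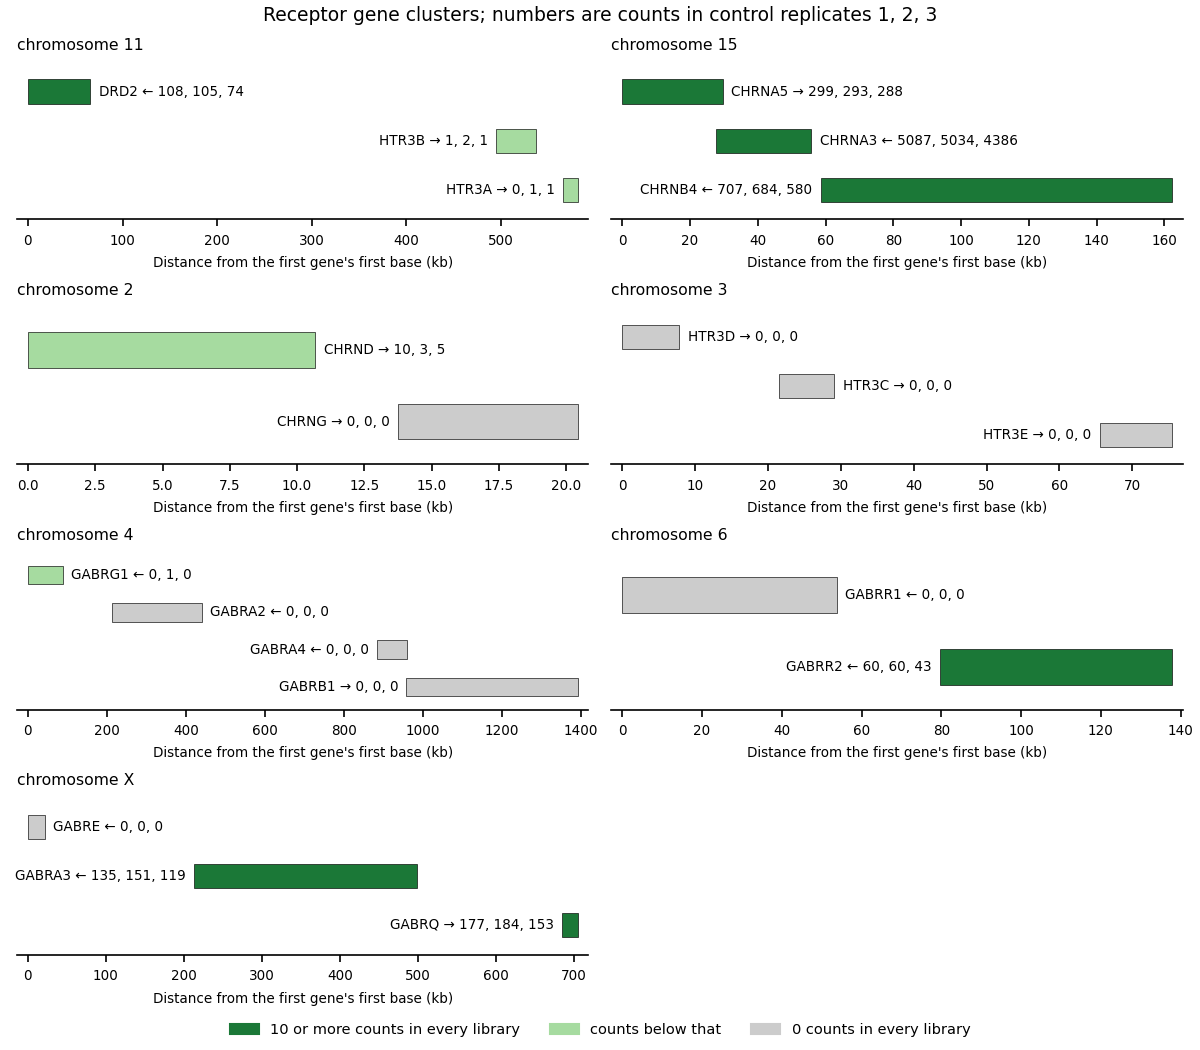
Receptor genes of 7 of the 12 clusters drawn to scale (distance in kb from the first base of the first gene, each panel on its own scale), with arrows for the direction of transcription and the counts in control replicates 1, 2 and 3. Of the drawn clusters, only that of CHRNA5, CHRNA3 and CHRNB4 on chromosome 15 has all its genes over the minimum of 10 counts.

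Sequence upstream of the genes was read to see what letters the promoters of high and silent members hold. RefSeq windows of 250 bases before the start (GRCh38.p14) were found for 72 of the 99 genes, 98 windows in all. The windows below show CHRNB2 and CHRNB4, the nicotinic beta subunit genes with the highest levels per length; GABBR1, the partner of the near silent GABBR2; GABRQ, in a cluster with the silent GABRE; and DRD5 and HTR3C, at 0 counts. Capitals mark the GC box, GGGCGG or CCGCCC on the other strand, to which SP1 can bind, and in GABBR1 also the cAMP response element TGACGTCA, to which CREB can bind. Bases that lie in exons of GENCODE release 29 were left off at the 3′ end, 35 for CHRNB4 and 39 for GABBR1. The windows lie, each read 5′ to 3′ on the gene's strand, at chr1:154567528-154567777 (plus strand, CHRNB2), chr15:78641246-78641460 (minus, CHRNB4), chr6:29628053-29628263 (minus, GABBR1), chrX:152637645-152637894 (plus, GABRQ), chr4:9781384-9781633 (plus, DRD5) and chr3:184052797-184053046 (plus, HTR3C).
CHRNB2: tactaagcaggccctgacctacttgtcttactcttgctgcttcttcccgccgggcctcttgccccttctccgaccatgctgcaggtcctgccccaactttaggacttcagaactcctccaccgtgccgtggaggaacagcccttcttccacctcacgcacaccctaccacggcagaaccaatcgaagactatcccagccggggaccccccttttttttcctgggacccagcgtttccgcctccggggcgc
CHRNB4: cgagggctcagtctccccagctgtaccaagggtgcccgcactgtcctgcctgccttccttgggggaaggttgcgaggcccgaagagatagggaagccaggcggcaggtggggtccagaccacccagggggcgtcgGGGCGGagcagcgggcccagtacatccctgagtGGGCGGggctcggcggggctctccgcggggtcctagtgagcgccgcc
GABBR1: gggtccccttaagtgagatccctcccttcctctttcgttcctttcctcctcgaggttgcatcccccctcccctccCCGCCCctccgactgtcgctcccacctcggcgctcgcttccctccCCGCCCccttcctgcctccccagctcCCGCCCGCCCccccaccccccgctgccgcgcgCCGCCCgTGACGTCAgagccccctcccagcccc
GABRQ: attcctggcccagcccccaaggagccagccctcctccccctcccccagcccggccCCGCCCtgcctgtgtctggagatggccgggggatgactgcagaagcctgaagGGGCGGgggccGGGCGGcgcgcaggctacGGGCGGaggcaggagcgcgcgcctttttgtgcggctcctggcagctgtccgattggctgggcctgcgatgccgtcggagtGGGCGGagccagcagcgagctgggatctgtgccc
DRD5: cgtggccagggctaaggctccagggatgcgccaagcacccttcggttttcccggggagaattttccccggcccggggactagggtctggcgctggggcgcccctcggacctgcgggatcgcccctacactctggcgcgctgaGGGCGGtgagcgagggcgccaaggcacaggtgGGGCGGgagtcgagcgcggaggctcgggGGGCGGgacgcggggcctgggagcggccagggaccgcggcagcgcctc
HTR3C: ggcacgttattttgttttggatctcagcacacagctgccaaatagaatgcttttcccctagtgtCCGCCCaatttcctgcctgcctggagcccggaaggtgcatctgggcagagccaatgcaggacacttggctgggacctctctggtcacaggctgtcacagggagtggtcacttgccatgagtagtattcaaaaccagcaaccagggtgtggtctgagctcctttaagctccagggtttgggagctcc

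CHRNB2 had 0 GC boxes and CHRNB4 2 in the bases printed (3 in its full window), at 143 and 63.8 CPM (24.5 and 24.3 CPM per kb of the longest transcript, 24.4 and 12.8 with the union of exons), while DRD5 had 3 and HTR3C 1 with no counts. GABBR1 and GABRQ had 5 each, and GABBR1 held the one cAMP response element, 65 bases before the start. In the bases printed, CpG pairs numbered 13 for CHRNB2, 16 for CHRNB4, 18 for GABBR1, 20 for GABRQ, 28 for DRD5 and 3 for HTR3C. DRD5 thus had the most CpG pairs of the 6, and HTR3C the fewest, both at 0 counts. A match of letters is a description and not a binding site.

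Over all windows, a GC box on either strand was found in 58.3% of 36 windows of genes over the minimum (25 genes), 46.2% of 26 windows of genes with fewer counts and 36.1% of 36 windows of genes at 0. The share was 42.6% of all 35116 windows in the table. The median ratio of observed to expected CpG was 0.591, 0.445 and 0.468 in the 3 sets and 0.558 over all windows. Windows of 1 gene overlap, and the sets were given no test. The core of the antioxidant response element, TGACNNNGC on either strand, to which NRF2 can bind, was in 11.2% of the receptor windows and 10.9% of all. The TATA box TATAAA was in 8.16% against 10.7%, the E-box CAGCTG in 15.3% against 14.0%, and the full cAMP response element in 1 of the 98 receptor windows against 1.65% of all.

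**Figure D4:**
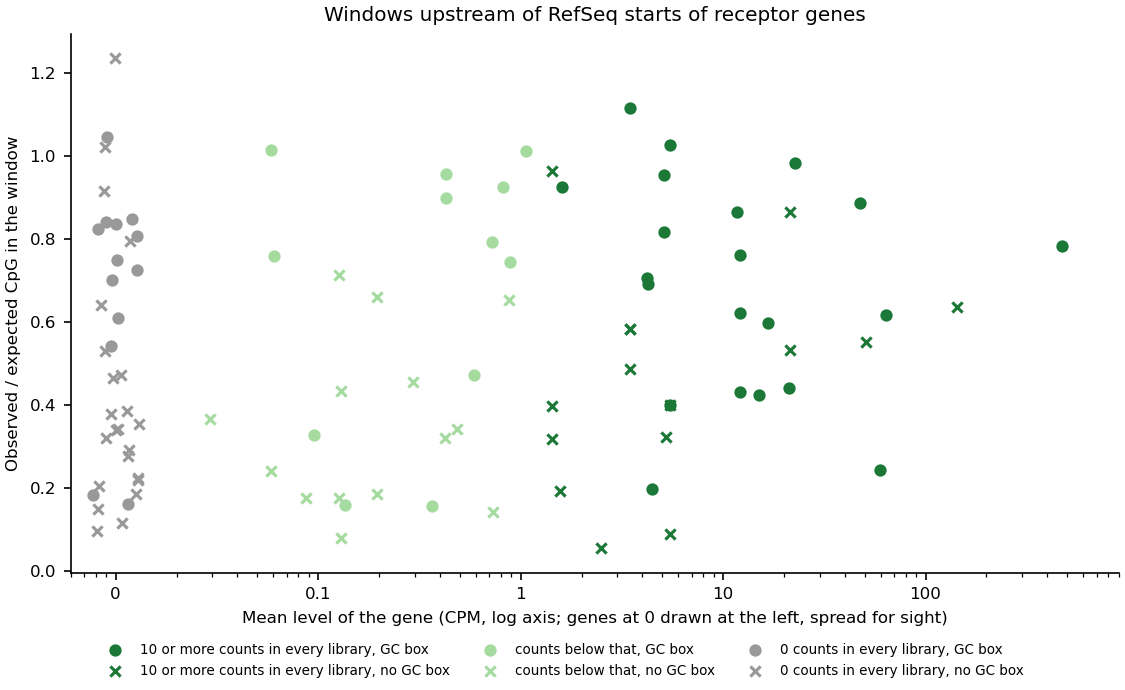
Observed over expected CpG in windows upstream of receptor gene starts against the mean CPM of the gene (log axis, genes at 0 drawn at the left), with filled circles for windows that hold a GC box and crosses for those that do not. Windows of genes at 0 span low and high CpG alike, and their median of 0.468 is below that of genes over the minimum, 0.591.

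Of 43 genes for proteins that assemble, anchor or modulate these receptors, 34 were over the minimum, which 62.2% of protein-coding genes passed. Nicotinic receptor chaperones were among them, RIC3 at 22.4 ± 1.66 CPM and TMEM35A (NACHO) at 8.41 ± 1.26. NETO2, an auxiliary subunit of kainate receptors, had 72.7 ± 3.76 CPM, while its relative NETO1 had 0 counts. The AMPA receptor auxiliary subunits CACNG4 (140 ± 22.4 CPM) and CACNG7 (71.5 ± 6.91 CPM) each exceeded the AMPA subunits themselves also per length, at 41.5 and 26.6 CPM per kb against 0.620 for GRIA2. GPHN, the anchor of GABA-A and glycine receptors, had 32.9 ± 4.45 CPM, and CLPTM1, which holds GABA-A receptors back in the cell, 129 ± 6.40. KCTD12, a subunit bound to GABA-B receptors, had 35.2 ± 1.40 CPM, and DLG4, the postsynaptic scaffold PSD-95, 40.9 ± 6.11.

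Of genes for making, loading, taking up and breaking down the transmitters, 19 of 36 passed the minimum. For acetylcholine, ACHE, which breaks it down, had 44.0 ± 3.48 CPM and SLC18A3, its vesicle transporter, 19.5 ± 3.06. CHAT, which makes it, had 12 to 13 counts, and SLC5A7, the choline transporter, 0, 1 and 0. For GABA, GAD1 had 12 to 16 counts and GAD2 0, while ABAT, which breaks GABA down, had 62.8 ± 4.43 CPM. The dopamine transporter SLC6A3 had 0 counts. Of G proteins and the enzymes and arrestins around them 27 of 29 passed, GNAI2, the Gi subunit, having 215 ± 8.82 CPM and GNA11, of the Gq class, 107 ± 11.6. Of other transmitter receptors 8 of 21 passed, with P2RX4, an ATP-gated channel, at 13.1 ± 0.605 CPM and GLRB, the glycine receptor beta subunit, at 10.8 ± 0.537. All 4 glycine receptor alpha genes, GLRA1 to GLRA4, had at most 4 counts.

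Between the control libraries the median coefficient of variation was 11.7% for the 36 receptor genes, against 8.69% for all 13920 genes over the minimum. Many receptor genes have few counts, and for 12 of the 36 the variation was below what counting alone gives. The share of all genes below it was not computed, so that count cannot be called particular to receptor genes. The widest were GRIA2, at 34.3%, and CHRM2, at 30.3%, against 17.4% and 9.16% from counting alone. Relative to the mean of replicates 1 and 2, replicate 3 was lower for 24 of the 36 genes and higher for 12. That split was not computed for all genes. The median log2 difference was -0.10 for the receptor genes against -0.01 for all genes. Replicate 3 was the lowest of the 3 libraries for 44.4% of the receptor genes, against 41.8% of all genes.

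The GC trend of replicate 3 moved with this. After its removal the median log2 difference was 0.00 for receptor genes and the median variation 8.88%, against 6.42% for all genes. CHRM2, with 39.6% GC, was still higher in replicate 3, with a log2 difference of 0.68 before and 0.53 after removal. GRIA2, with 37.9% GC, was lower, with -0.41 before and -0.59 after. For GRIA2, however, replicate 1 stood apart (4.86 CPM), while replicates 2 and 3 were close (2.89 and 2.71 CPM). Its difference is therefore not particular to replicate 3. Without replicate 3, nicotinic genes had a mean of 732 CPM, GABA-A genes 121 CPM and all receptor genes 1182 CPM.

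**Figure D5:**
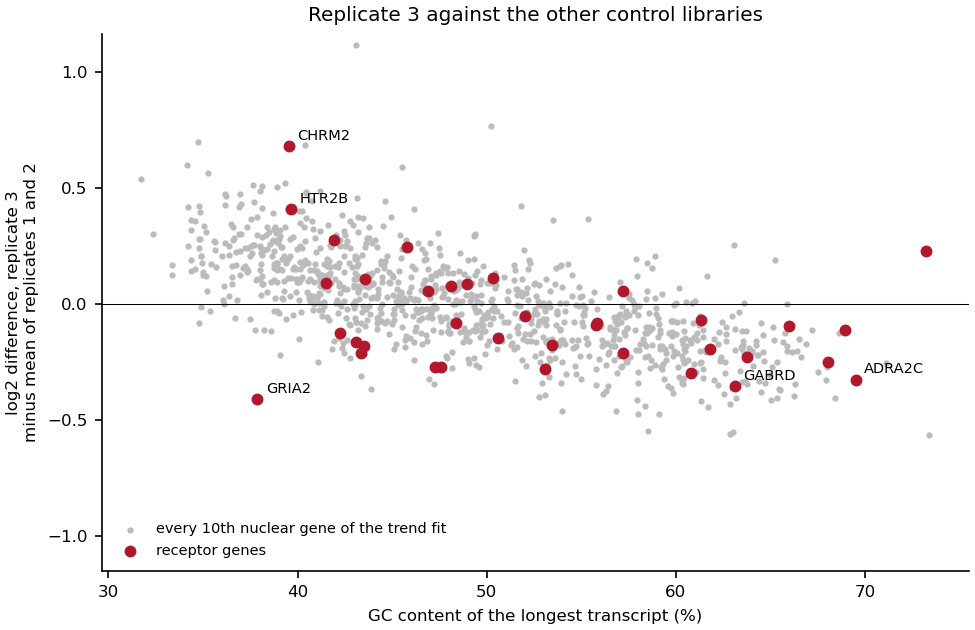
Log2 difference of replicate 3 from the mean of control replicates 1 and 2 against the GC content of the longest transcript, for the 36 receptor genes over the minimum (red) and every 10th nuclear gene of the GC fit (grey). ADRA2C (-0.33) lies with the grey points at high GC, whereas CHRM2 (0.68) lies above and GRIA2 (-0.41) below those of like GC. For GRIA2 replicate 1 was high (4.86 CPM) and replicates 2 and 3 were close (2.89 and 2.71 CPM).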

How the data were processed

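Whole-number counts for each Ensembl gene were deposited, made by the authors with fastp 0.21.1, STAR 2.7.7a and featureCounts on GRCh38, per the submitters' processing notes. Libraries came from a stranded mRNA kit, per the labels' protocols. The annotation release and the use of strand in counting are not given in the sources used here. Columns were matched to samples by number alone, and 3 columns that match no label were not used. The planned edgeR comparison of peptide-treated with control libraries was therefore not run, and no test was made.

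The table lists 60710 genes, of which 60709 had values (the entry of ANK2 is broken). Symbols came from a table of Ensembl identifiers, and 273 identifiers without a symbol held 0.029% of counts. Counts were scaled to CPM with TMM factors (edgeR 4.0.16, R 4.3.3), with a minimum of 10 counts in every library. Lengths, GC content and positions came from GENCODE release 29 (GRCh38). A GC trend was fitted per library over 10290 nuclear genes averaging 100 counts or more, as medians in 50 bins, and was chosen after seeing the data. Calculations used Python 3.11.15, numpy 2.4.6 and pandas 2.3.3, and were tested on simulated data. The rule on named genes was to give every member over the minimum with its values, and the others as counts by family; values of some members are not reported here, though totals and counts include them. The members and lists were chosen with earlier results of these data known. Coupling classes, genomic clusters, ratios and the windows printed were chosen after values were seen. Alternatives were RLE size factors (DESeq2 1.42.0), totals without scaling factors, lower count minimums of 5 and 1, omission of mitochondrial genes, removal of the GC trend, length as the union of exons, and omission of each library.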

Additional observations from a re-analysis of the deposited data

How the results depend on the processing

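No paired analysis was possible because only 1 group had matched columns. With RLE size factors or library size alone, every family sum and the mean of each of the 36 members over the minimum stayed within 1 SD; other named genes were not run. With the 37 mitochondrial genes left out, all receptor genes summed to 1238 CPM and nicotinic genes to 774. GABA-A genes then summed to 128 and metabotropic glutamate genes to 36.4, and the means of GRM7, GABRA3 and GABRQ also moved by more than 1 SD. Leaving genes out of the totals raises the CPM of all others by a similar share by construction. CHRNA3 rose likewise from 470.5 to 493.9 CPM, within its larger SD. A move here therefore marks a small SD and no particular sensitivity of these genes. A minimum of 1 count passed 56 genes, with a median coefficient of variation of 15.1%, and removal of the GC trend gave 8.88%. Leaving out each library gave 7.996 to 11.0% for that median, and 36 to 37 genes over the minimum. Leaving 1 of 3 libraries out moves a mean by less than 1 SD by construction, so those values say little about stability. With the union of exons as length, 9 of 12 ratios moved by more than 1 SD. Depth limits genes near 10 counts, such as CHRM5 and GRIA4.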
